A study of Mus musculus with 90 samples.

Results

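The genes described here are 9 targets of the nuclear receptor PPARα in the liver, picked by symbol with earlier results of these data known. They are the fatty acid ω-hydroxylases Cyp4a10, Cyp4a14, Cyp4a31 and Cyp4a32, the fatty aldehyde dehydrogenase Aldh3a2, the fatty acid-binding protein gene Fabp1, the fatty acid transporter gene Cd36, and the pantetheinase genes Vnn1 and Vnn3. Each symbol matched 1 of the 27654 Ensembl gene identifiers in the count tables, and all 9 genes passed the filter on low counts in every edgeR comparison reported here.

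Livers of adult male C57BL/6J mice on chow were profiled by bulk RNA sequencing, to ask what hepatocyte glucocorticoid receptor (GR) contributes to the daily response to caloric restriction. In the time series, GRfl/fl mice, which carry the floxed GR gene without Cre, are called WT, and GRfl/fl x Alb-Cre mice are called GR LKO. Albumin-driven Cre acts in hepatocytes, so other liver cells of GR LKO mice keep the gene. Both genotypes were held on a control regimen (ctrl., free access to food that was limited to the night in the final week) or on caloric restriction (cal. res.) deepened stepwise to a 40% reduction, with food given at lights off. Livers were taken at ZT0, ZT4, ZT8, ZT12, ZT16 and ZT20, where ZT12 is lights off. On cal. res. every group held 3 mice (18 WT and 18 GR LKO libraries), and on ctrl. every group held 3 or 4 (22 WT and 20 GR LKO libraries). A separate diet comparison at ZT12 held 3 ctrl. and 3 cal. res. livers of C57BL/6J mice labelled WT, without a floxed allele in the label. The titles of its controls read AL while their treatment label is night-restricted feeding. A further set at ZT12 held 3 WT mice given daily corticosterone injections for a week (CORT) and 3 vehicle-injected controls, all on night-restricted feeding. The labels give no age in weeks.

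The total estimated count per library ran from 14235473 to 20788575 in the cal. res. time series, from 10057544 to 17089004 in the ctrl. time series, from 36442195 to 39492146 in the diet comparison and from 13739631 to 16077943 in the CORT set. Levels are TMM-scaled CPM. Differences are log2 fold changes from edgeR, and a gene is called where the p adjusted over all genes tested is under 0.05. Replicates were separate mice, so the p-values measure the spread between mice. The 2 diets of the time series stand in separate tables, so that diet and batch cannot be told apart there. Hepatocyte markers were abundant in every library, and Alb was the highest of the 8. Markers of exocrine pancreas summed to 989 CPM in WT cal. res. ZT12 replicate 3 and, led by Amy2a5, to 618 CPM in WT ctrl. ZT16 replicate 2, against at most 4.42 CPM in any other library. Erythrocyte markers summed to 3863 CPM, led by Hbb-bs, in GR LKO cal. res. ZT0 replicate 2, against a median of 459 CPM over its genotype and diet. Tests of the 9 genes that rest on these 3 libraries were also run without them.

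PPARα is a ligand-activated receptor that binds DNA with RXR and turns on fatty acid use in the fasted liver. Its targets include microsomal ω-hydroxylases of the Cyp4a family, which start the conversion of fatty acids to dicarboxylic acids, and Aldh3a2, which oxidizes the fatty aldehydes that arise on the way. Fabp1 carries fatty acids in the cytosol, Cd36 takes them up at the cell surface, and the vanins Vnn1 and Vnn3 are tied to the recycling of pantothenate for coenzyme A.

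Nr3c1, the gene that encodes GR and is deleted in GR LKO hepatocytes, was low in every GR LKO library. On cal. res. its lowest, median and highest CPM were 70.7, 93.2 and 113 in WT and 21.6, 24.9 and 32.2 in GR LKO. On ctrl. they were 72.5, 87.7 and 118 in WT and 16.3, 21.6 and 29.05 in GR LKO. The genotypes did not overlap on either diet, and the log2 fold change over all time points was -1.84 (SE 0.04) on cal. res. and -1.96 (SE 0.05) on ctrl. In bulk liver, fewer cells of a type and less RNA per cell cannot be told apart, and Nr3c1 reads that remain can come from cells that do not carry the deletion.

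Abundance per length differed widely among the genes. Over the time series, CPM per kilobase of exon averaged 4524 for Fabp1, 303 for Cyp4a10 and 262 for Cyp4a14. In WT livers the order of these Cyp4a genes differed between the diets of the time series, where diet and batch cannot be told apart. In WT cal. res. livers Cyp4a14 was at 519.7 and Cyp4a10 at 447, and in WT ctrl. livers Cyp4a14 at 28.4 lay under Cyp4a10 at 69.1 and Aldh3a2 at 50.1. Over all groups Aldh3a2 averaged 72.02 and Vnn3 32.5. Cyp4a32 (15.9), Cd36 (13.5) and Vnn1 (11.6) lay close together on this scale, and Cyp4a31 was the lowest at 2.38. The 4 Cyp4a genes are neighbours on chromosome 4 (GRCm38), with Cyp4a14 at chr4:115486200-115496142 on the minus strand and Cyp4a10 at chr4:115518264-115533649, Cyp4a31 at chr4:115563649-115579015 and Cyp4a32 at chr4:115600969-115621602 on the plus strand. Vnn3 (chr10:23851462-23869843) and Vnn1 (chr10:23894688-23905343) are neighbours on the plus strand of chromosome 10. Aldh3a2 lies at chr11:61223417-61267464 on the minus strand, Fabp1 at chr6:71199827-71205023 on the plus strand and Cd36 at chr5:17781690-17888801 on the minus strand. Of the distinct 31-base words in its transcripts, Cyp4a32 shares 62.8% with Cyp4a relatives, Cyp4a10 44.9% and Cyp4a31 30.3%, so the split of reads among these paralogs is uncertain. Cyp4a14 shares 1.99%, and the other 5 genes shared no word with the 16 genes compared.

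The diet comparison asked which genes differ between cal. res. and ctrl. livers of WT mice at the end of the daily fast. Of the 9 genes 5 passed the edgeR test, 2 higher and 3 lower on cal. res., in a contrast that called 47.1% of all genes tested (23.5% higher and 23.6% lower). Cyp4a14 gave the largest estimate of the set. Its CPM was 115, 135 and 58.9 in the 3 ctrl. livers and 1518, 3094 and 2910.4 in the 3 cal. res. livers (log2 fold change 4.60, SE 0.41, adjusted p = 0.000341 by edgeR). Every cal. res. liver held more Cyp4a14 mRNA than any ctrl. liver, by over an order of magnitude. Cyp4a10 read 429, 567 and 304 CPM on ctrl. and 996, 1295 and 1001 on cal. res. (log2 fold change 1.34, SE 0.23, adjusted p = 0.00317 by edgeR), again with no overlap. Cyp4a32 moved the other way, with 38.01, 42.8 and 39.8 CPM on ctrl. and 14.5, 14.1 and 8.91 on cal. res. (log2 fold change -1.69, SE 0.18, adjusted p = 0.000534 by edgeR). All 3 cal. res. livers lay under all 3 ctrl. livers for Cyp4a32, while the groups overlapped for Cyp4a31, at 14.6, 16.4 and 12.2 CPM and 9.41, 21.6 and 16.4 CPM (log2 fold change 0.13, adjusted p = 0.718 by edgeR).

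The dehydrogenase gene Aldh3a2 read 347, 411 and 291 CPM on ctrl. and 293, 373 and 348 CPM on cal. res. (log2 fold change -0.05, adjusted p = 0.788 by edgeR), and the groups overlapped. Fabp1 read 4663, 4404 and 4602 CPM on ctrl. and 1268, 1689 and 1127 on cal. res. (log2 fold change -1.75, SE 0.15, adjusted p = 0.0003 by edgeR). The highest cal. res. liver held less than every ctrl. liver by over 2-fold. Cd36 read 16.8, 27.3 and 16.8 CPM on ctrl. and 49.02, 41.4 and 20.4 on cal. res., where replicate 3 alone fell within the ctrl. range (log2 fold change 0.86, SE 0.33, adjusted p = 0.0698 by edgeR). Without that library the Cd36 log2 fold change was 1.16 with an adjusted p of 0.0103, and over the alternative analyses by edgeR and DESeq2, the time-series livers included, the adjusted p for Cd36 ran from 0.0141 to 0.847. Vnn1 read 97.6, 103 and 53.97 CPM on ctrl. and 25.7, 33.8 and 18.5 on cal. res. (log2 fold change -1.71, SE 0.30, adjusted p = 0.0034 by edgeR). Its neighbour Vnn3 read 62.4, 71.6 and 66.5 CPM and 102, 79.3 and 74.98 CPM (log2 fold change 0.35, SE 0.12, adjusted p = 0.0505 by edgeR). The Vnn1 groups did not overlap and were lower on cal. res., whereas each cal. res. liver held more Vnn3 than each ctrl. liver without passing the test. Without WT cal. res. replicate 3 the adjusted p for Vnn3 was 0.0316 by edgeR, and over the alternative analyses it ran from 0.0127 to 0.0831.

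The same contrast can be drawn from the WT libraries of the time series at ZT12, where diet and batch cannot be told apart. There Cyp4a14 differed by 6.70 and Cyp4a10 by 3.88 on the log2 scale (edgeR adjusted p = 0.000852 and 0.00121), and Fabp1 by -1.69 (adjusted p = 0.00139). These 3 genes moved in the same direction in both sets of livers. Vnn1 did not pass in the time series (log2 fold change -0.24, edgeR adjusted p = 0.603), and Cyp4a32 had the opposite sign (log2 fold change 0.43, edgeR adjusted p = 0.254). Cyp4a31 and Vnn3 passed there, with log2 fold changes of 1.84 and 0.67 (edgeR adjusted p = 0.0017 and 0.0127). The signs of Cd36 (-0.12, edgeR adjusted p = 0.847) and of Aldh3a2 (0.28, edgeR adjusted p = 0.319) were also opposite to those in the diet comparison. With all livers, neither gene passed in the reported edgeR fit of either set. Cd36 did pass in the diet comparison with the replicate number as a block (log2 fold change 0.81, edgeR adjusted p = 0.0463). Without WT cal. res. ZT12 replicate 3, the liver with pancreatic markers, which was left out here after seeing the data, the same 5 genes passed. Their log2 fold changes were then Cyp4a14 6.79, Cyp4a10 3.91, Fabp1 -1.72, Cyp4a31 1.99 and Vnn3 0.68 (edgeR adjusted p = 0.00359, 0.00512, 0.00735, 0.00409 and 0.0368). The 2 sets also differ in genotype label, since only the time-series mice are labelled as floxed. Among markers of other cells in the diet comparison, endothelial genes were higher on cal. res. for 4 of 6 (summed level 116 to 153 CPM on ctrl. and 194 to 222 CPM on cal. res., led by Kdr on ctrl. and Clec4g on cal. res.) and Kupffer cell genes were lower for 1 of 8 (113 to 142 CPM and 86.1 to 138 CPM, led by Clec4f). Hepatocyte genes were higher for 3 of 8 (summed level 96824 to 103276 CPM and 167458 to 169392 CPM, led by Alb), stellate genes for 2 of 6 (Dcn and Des, summed level 177 to 214 CPM and 262 to 298 CPM, led by Dcn), cholangiocyte genes for 2 of 4 tested (Sox9 and Krt19, summed level 46.6 to 48.8 CPM and 38.2 to 58.4 CPM, led by Spp1) and the adipocyte gene Fabp4, the only 1 of its 6 tested (summed level 3.37 to 5.91 CPM and 8.49 to 9.23 CPM). Lower on cal. res. (summed levels of each kind in brackets) were the lymphocyte gene Cd79a, 1 of 3 tested (1.93 to 3.58 CPM and 0.711 to 0.909 CPM), and the erythrocyte gene Alas2, 1 of 5 (463 to 1088 CPM and 207 to 589 CPM, led by Hbb-bs). Their part in the results above was not tested.

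**Figure D1:**
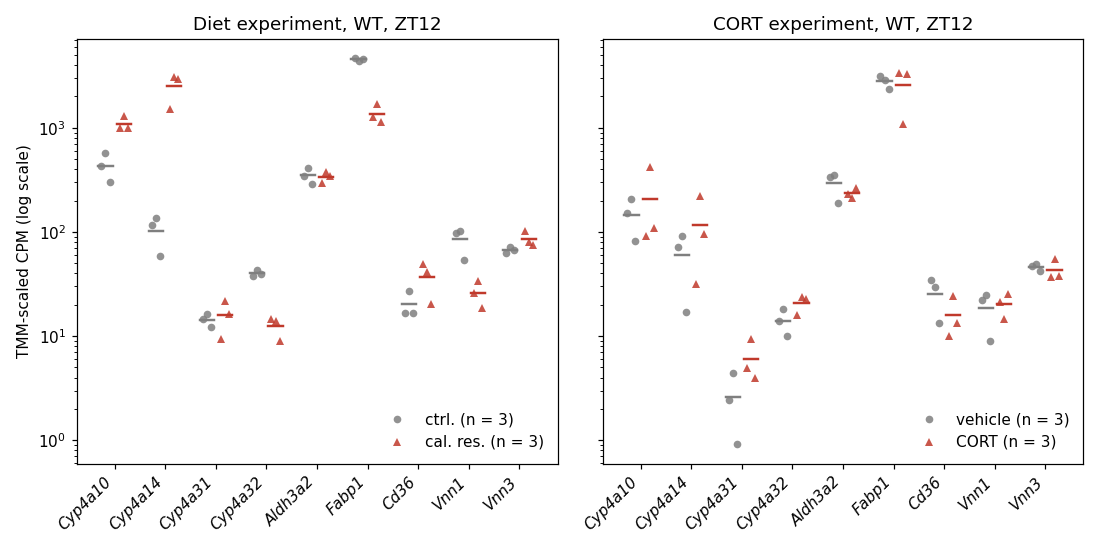
CPM (log axis) of the 9 genes in each liver of the diet comparison (left, 3 ctrl. and 3 cal. res.) and of the CORT set (right, 3 vehicle and 3 CORT), all WT at ZT12, with bars at the group means. Cyp4a14 lies at 115, 135 and 58.9 CPM on ctrl. and at 1518, 3094 and 2910.4 on cal. res., while vehicle and CORT livers overlap for all 9 genes.

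The CORT set asked whether raised corticosterone without food restriction moves the same genes. None of the 9 passed (0 called by edgeR, 0 at an unadjusted p under 0.05 and 0 called by DESeq2), in a contrast where these shares over all genes were 8.11%, 26.0% and 7.84%. Vehicle and CORT livers overlapped for 9 of 9, a count for which no share over all genes was computed. Cyp4a14 read 71.9, 90.9 and 16.9 CPM with vehicle and 31.4, 220.1 and 95.4 with CORT (log2 fold change 0.95, SE 0.77, adjusted p = 0.484 by edgeR). Cyp4a10 read 151, 208 and 81.05 CPM and 90.6, 423 and 109 CPM (log2 fold change 0.50, SE 0.62, adjusted p = 0.666 by edgeR). For both genes CORT replicate 2 was the highest of the 6 livers and vehicle replicate 3 the lowest. The less abundant Cyp4a31 read 2.44, 4.43 and 0.913 CPM and 4.93, 9.32 and 3.98 CPM (log2 fold change 1.23, adjusted p = 0.222 by edgeR). Cyp4a32 read 13.96, 18.4 and 9.95 CPM and 16.1, 23.6 and 22.5 CPM (log2 fold change 0.56, adjusted p = 0.199 by edgeR). Their paralog-shared reads make both levels uncertain, and in both the groups met at their edges. Aldh3a2 read 337, 354 and 189.8 CPM and 231, 212 and 265 CPM (log2 fold change -0.32, adjusted p = 0.434 by edgeR). Fabp1 read 3135, 2882 and 2336 CPM and 3348, 1081 and 3286 CPM (log2 fold change -0.12, adjusted p = 0.887 by edgeR). CORT replicate 2, the liver highest in Cyp4a10, held the least Fabp1. Cd36 read 34.3, 29.3 and 13.2 CPM and 9.96, 24.2 and 13.5 CPM (log2 fold change -0.69, adjusted p = 0.352 by edgeR). Vnn1 read 22.5, 24.6 and 8.92 CPM and 21.4, 14.6 and 25.3 CPM (log2 fold change 0.13, adjusted p = 0.869 by edgeR). Vnn3 read 47.1, 49.3 and 42.4 CPM and 36.6, 55.02 and 37.9 CPM (log2 fold change -0.10, adjusted p = 0.763 by edgeR). With 3 mice a group and this spread, the absence of a call does not show that the levels are alike. Kupffer cell markers were higher with CORT for 2 of 8 (summed level 70.2 to 92.4 CPM with vehicle and 99.0 to 139 CPM with CORT, led by Clec4f), and hepatocyte markers for 1 of 8, Hnf4a (summed level 106031 to 111091 CPM and 101575 to 114937 CPM, led by Alb). Lower with CORT (summed levels of each kind in brackets) were 1 of 6 stellate markers, Lrat (127 to 158 CPM and 125 to 145 CPM, led by Dcn), 1 of 4 cholangiocyte markers tested, Sox9 (25.98 to 38.8 CPM and 24.4 to 46.6 CPM, led by Spp1), and 1 of 6 endothelial markers, Kdr (95.2 to 120.0 CPM and 77.2 to 92.3 CPM, led by Clec4g). Their part in the levels of the 9 genes was not tested.

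The genotype comparison asked what loss of hepatocyte GR does to these genes on each diet. Fitted over all 6 time points of a diet, an analysis chosen after seeing the data, 9 of 9 genes were higher in GR LKO than in WT livers on ctrl. and 7 of 9 on cal. res., and none was lower. Over all genes tested, edgeR called 17.6% on ctrl. (9.50% higher) and 30.0% on cal. res. (14.3% higher). Since the 9 genes were chosen with earlier results of these data known, setting them beside all genes is descriptive only. The median log2 fold change of the 9 genes was 0.71 on ctrl. and 0.76 on cal. res., against a median of 0.00 over all genes in each fit, and in every other comparison the median over all genes ran from -0.02 to 0.01. The counts were 9 and 7 as well without the libraries that stand apart in pancreatic or erythrocyte markers. DESeq2 also called 9 on ctrl. and 7 on cal. res., where it called 12.2% and 20.7% of all genes.

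Among the ω-hydroxylases, Cyp4a14 had the largest estimate on ctrl. Its lowest, median and highest CPM there were 2.88, 51.6 and 332 in WT and 42.1, 176 and 516 in GR LKO (log2 fold change 1.74, SE 0.31, adjusted p = 7.1e-05 by edgeR). On cal. res. they were 734, 1389 and 2459 in WT and 584, 1239 and 1930.3 in GR LKO (log2 fold change -0.08, SE 0.09, adjusted p = 0.568 by edgeR). All cal. res. livers of either genotype lay above every ctrl. liver, with diet and batch not told apart, and within cal. res. the genotypes overlapped. The difference between the diets passed its own test (log2 difference -1.82, SE 0.35, edgeR adjusted p = 0.00139), but not without the livers numbered replicate 2 (adjusted p = 0.0634). Cyp4a10 had lowest, median and highest CPM of 25.4, 133 and 408 in WT and 122, 381 and 719.6 in GR LKO on ctrl. (log2 fold change 1.36, SE 0.21, adjusted p = 4.15e-06 by edgeR). On cal. res. they were 426, 953 and 1493 in WT and 760.4, 1184 and 1886 in GR LKO (log2 fold change 0.42, SE 0.09, adjusted p = 0.000518 by edgeR). Cyp4a10 was thus higher in GR LKO on both diets, with WT and GR LKO ranges that overlapped. Its diet interaction of -0.94 (SE 0.24, edgeR adjusted p = 0.0234) passed only narrowly.

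The edgeR adjusted p of the Cyp4a10 interaction was 0.0593 without ZT0, 0.0761 without ZT4, 0.055 without ZT8, 0.108 without ZT12 and 0.0536 without ZT16. It was 0.0556, 0.253 and 0.124 without the livers numbered 1, 2 and 3. The low-abundance paralog Cyp4a32 had lowest, median and highest CPM of 7.91, 17.96 and 27.3 in WT and 14.8, 26.01 and 42.9 in GR LKO on ctrl. (log2 fold change 0.57, SE 0.11, adjusted p = 0.000135 by edgeR). Those on cal. res. were 6.68, 16.3 and 37.5 in WT and 17.97, 31.7 and 73.6 in GR LKO (log2 fold change 0.92, SE 0.13, adjusted p = 1.55e-06 by edgeR). Cyp4a32 was higher in GR LKO on both diets with overlapping ranges. Cyp4a31, the least abundant, ranged over 1.34 to 6.37 CPM in WT and 2.0004 to 8.33 CPM in GR LKO on ctrl. (log2 fold change 0.58, SE 0.16, adjusted p = 0.0104 by edgeR). This Cyp4a31 call was lost without ZT0 (adjusted p = 0.068), without ZT8 (0.0519) and without the livers numbered 1 (0.194) or 2 (0.0545) by edgeR. On cal. res. Cyp4a31 ranged over 2.39 to 15.8 CPM in WT and 3.15 to 13.8 CPM in GR LKO (log2 fold change 0.10, adjusted p = 0.702 by edgeR). Values for Cyp4a10, Cyp4a31 and Cyp4a32 carry the uncertainty of shared sequence.

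Aldh3a2 acts after the ω-hydroxylases. Its lowest, median and highest CPM on ctrl. were 146, 281 and 383 in WT and 357, 456 and 641 in GR LKO (log2 fold change 0.71, SE 0.08, adjusted p = 4.29e-08 by edgeR). On cal. res. they were 273, 314 and 465 in WT and 353, 576 and 855 in GR LKO (log2 fold change 0.76, SE 0.07, adjusted p = 2.4e-10 by edgeR). At each of the 6 time points on each diet, the lowest GR LKO liver held more Aldh3a2 than the highest WT liver of that time point. Its diet interaction did not pass (log2 difference 0.06, edgeR adjusted p = 0.884). The group means of Aldh3a2 in GR LKO cal. res. livers ran from 409 CPM at ZT0 to 767 CPM at ZT12, against 285 CPM at ZT0 to 387 CPM at ZT8 in WT cal. res. livers.

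Of the genes for fatty acid handling, Fabp1 had lowest, median and highest CPM of 1446, 2991 and 3738 in WT and 2447, 3501 and 4705 in GR LKO on ctrl. (log2 fold change 0.32, SE 0.06, adjusted p = 0.000234 by edgeR). On cal. res. they were 515, 1238 and 1911 in WT and 1871, 2011 and 3788 in GR LKO (log2 fold change 0.87, SE 0.13, adjusted p = 2.61e-06 by edgeR). Fabp1 was higher in GR LKO on both diets, and on cal. res. the lowest GR LKO liver lay just under the highest WT liver. The diet interaction for Fabp1 was 0.55 on the log2 scale (SE 0.14, edgeR adjusted p = 0.0174), with a larger genotype difference on cal. res. It was lost without ZT8 (adjusted p = 0.06 by edgeR), ZT12 (0.0628) or ZT16 (0.131), and without the livers numbered 1 (0.0994) or 2 (0.246). Cd36 had lowest, median and highest CPM of 8.79, 27.3 and 47.9 in WT and 28.5, 60.9 and 104 in GR LKO on ctrl. (log2 fold change 1.185, SE 0.16, adjusted p = 7.15e-07 by edgeR). For Cd36 on cal. res. they were 13.3, 36.6 and 69.03 in WT and 30.2, 77.9 and 99.5 in GR LKO (log2 fold change 0.97, SE 0.18, adjusted p = 7.7e-05 by edgeR). Cd36 was higher in GR LKO on both diets with overlapping ranges, and its diet interaction did not pass (log2 difference -0.21, edgeR adjusted p = 0.762).

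Vnn1 had the largest genotype estimate on cal. res. Its lowest, median and highest CPM there were 0.815, 9.81 and 21.6 in WT and 21.04, 41.1 and 60.8 in GR LKO (log2 fold change 1.99, SE 0.21, adjusted p = 7.01e-09 by edgeR). On ctrl. they were 4.80, 15.4 and 27.3 in WT and 10.1, 45.8 and 74.6 in GR LKO (log2 fold change 1.47, SE 0.21, adjusted p = 1.47e-06 by edgeR). On cal. res. a single WT liver reached the lowest GR LKO level, and at each of the 6 time points the genotypes did not overlap, whereas on ctrl. they did not overlap at 3 of 6. Vnn3 had lowest, median and highest CPM of 22.99, 39.9 and 61.6 in WT and 19.5, 64.02 and 82.2 in GR LKO on ctrl. (log2 fold change 0.53, SE 0.13, adjusted p = 0.0034 by edgeR). For Vnn3 on cal. res. they were 15.5, 63.4 and 87.1 in WT and 59.5, 78.7 and 122 in GR LKO (log2 fold change 0.55, SE 0.15, adjusted p = 0.00402 by edgeR). Vnn3 was higher in GR LKO on both diets by less than Vnn1, with overlapping ranges, and its cal. res. call was lost without the livers numbered 3 (adjusted p = 0.0779 by edgeR). Neither pantetheinase gene passed the diet interaction (edgeR adjusted p = 0.45 for Vnn1 and 0.972 for Vnn3).

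**Figure D2:**
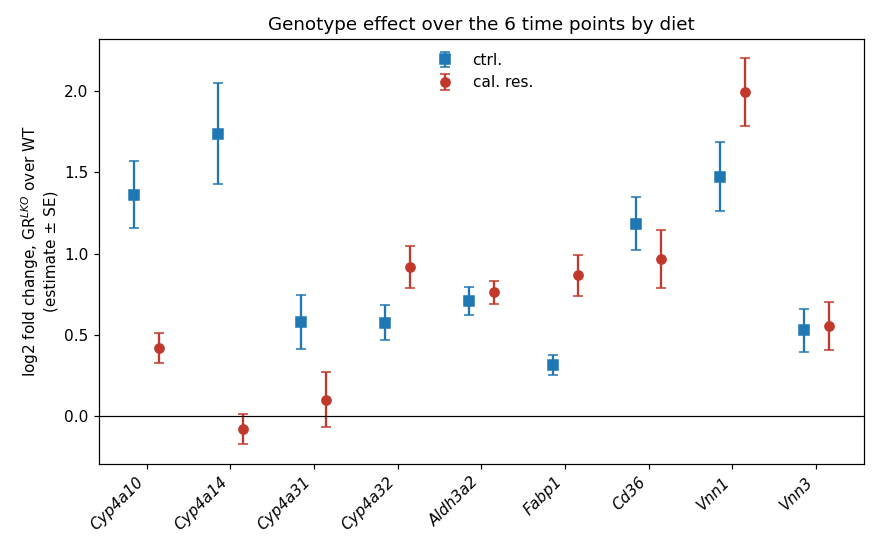
log2 fold change of GR LKO over WT (edgeR estimate and SE, all 6 time points of a diet) for the 9 genes on ctrl. (squares) and cal. res. (circles). Estimates on ctrl. run from 0.32 for Fabp1 to 1.74 for Cyp4a14, and on cal. res. from -0.08 for Cyp4a14 to 1.99 for Vnn1.

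The difference between the diets was tested directly. Over all time points 3 of 9 genes passed the genotype by diet interaction (Cyp4a14, Cyp4a10 and Fabp1), where edgeR called 1.70% of all genes, and DESeq2 also called 3, against 1.75%. The count was 1 without ZT8, ZT12 or ZT16, 1 without the livers numbered 1 and 0 without those numbered 2, with 4 of 9 at an unadjusted p under 0.05 in the full set, against 14.2% of all genes. At single time points 0 of 9 passed by edgeR at ZT0, ZT4, ZT8, ZT12, ZT16 and ZT20, with 4, 2, 1, 3, 3 and 1 of them at an unadjusted p under 0.05. Over all genes the share called at these times was 0%, 0%, 0.0810%, 1.01%, 0.234% and 0%, and the share at an unadjusted p under 0.05 10.2%, 6.03%, 8.45%, 14.2%, 10.5% and 6.97%. DESeq2 called 1 of 9 at ZT12 (2.59% of all genes), Cyp4a14 (log2 difference -3.19, adjusted p = 0.0342 by DESeq2 and 0.0954 by edgeR). Without WT ctrl. ZT12 replicate 1, the highest of its group for Cyp4a14, edgeR gave -4.25 with an adjusted p of 0.0114 for Cyp4a14. DESeq2 called 1 of 9 at ZT16 (1.03% of all genes), Fabp1 (log2 difference 1.02, adjusted p = 0.0042 by DESeq2 and 0.142 by edgeR), and at the other 4 times it called 0.

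At single time points on cal. res., each call was in the direction of higher levels in GR LKO. At ZT0 1 of 9 was higher, against 0.280% of all genes. It was Vnn1, at 7.94, 12.8 and 16.1 CPM in WT and 43.4, 58.4 and 55.2 CPM in GR LKO (log2 fold change 2.10, SE 0.25, adjusted p = 0.0281 by edgeR), lost without WT replicate 2 (0.103), WT replicate 3 (0.0659), GR LKO replicate 2 (0.116) and GR LKO replicate 3 (0.0948), of which GR LKO replicate 2 is the library with erythrocyte markers. The groups were apart by over 2-fold at their edges. Without GR LKO replicate 1, Aldh3a2 (adjusted p = 0.0251 by edgeR) and Cd36 (0.0375) passed beside Vnn1. At ZT4 0 of 9 passed by edgeR, where it called 0.391% of all genes higher, with 5 at an unadjusted p under 0.05 (14.6% of all genes) and 2 called by DESeq2 (2.56% of all genes), and Fabp1 passed without WT replicate 3 (adjusted p = 0.0176 by edgeR). At ZT8 1 of 9 was higher, against 1.17% of all genes. It was Cyp4a32, at 16.8, 14.7 and 15.1 CPM in WT and 31.9, 27.9 and 36.4 CPM in GR LKO (log2 fold change 1.05, SE 0.12, adjusted p = 0.00897 by edgeR), lost without GR LKO replicate 1 (0.0543), and without WT replicate 1 Vnn1 passed too (adjusted p = 0.0092), as did Cd36 without WT replicate 3 (0.031).

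At ZT12, the end of the fast, 2 of 9 were higher in GR LKO cal. res. livers, against 7.42% of all genes. Aldh3a2 read 327, 304 and 347 CPM in WT and 715, 730.1 and 855 CPM in GR LKO (log2 fold change 1.22, SE 0.10, adjusted p = 0.000729 by edgeR). Cd36 read 13.3, 13.6 and 22.8 CPM in WT and 48.05, 74.9 and 89.3 CPM in GR LKO (log2 fold change 2.07, SE 0.28, adjusted p = 0.00438 by edgeR). Some markers of Kupffer and endothelial cells were also higher, and some of hepatocytes lower, in GR LKO at this time, as given below. Every GR LKO liver was above every WT liver for Aldh3a2 and for Cd36, and both calls held whichever of the 6 livers was left out, WT replicate 3 with its pancreatic markers included. Fabp1 read 675, 1449 and 1124 CPM in WT and 1975, 1976 and 1907 CPM in GR LKO (log2 fold change 0.84, SE 0.24, adjusted p = 0.0582 by edgeR), and passed without WT replicate 1 (adjusted p = 0.0364) or 2 (0.0252). Vnn1 passed without GR LKO replicate 1 (adjusted p = 0.0481 by edgeR). Cyp4a14 was high in both genotypes at this time, at 2459, 1853 and 1724 CPM in WT and 1540.4, 1623 and 1809.9 CPM in GR LKO (log2 fold change -0.29, adjusted p = 0.228 by edgeR).

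At ZT16, after food was given, 3 of 9 were higher in GR LKO cal. res. livers, against 2.53% of all genes. Vnn1 read 9.20, 9.66 and 4.08 CPM in WT and 42.8, 37.1 and 32.9 CPM in GR LKO (log2 fold change 2.30, SE 0.29, adjusted p = 0.00595 by edgeR). Aldh3a2 read 300.0, 323 and 283 CPM and 559.7, 612 and 649 CPM (log2 fold change 1.01, SE 0.10, adjusted p = 0.00232 by edgeR). Fabp1 read 605, 932 and 949 CPM and 2885, 2033 and 1871 CPM (log2 fold change 1.45, SE 0.22, adjusted p = 0.0128 by edgeR). The genotypes were apart for all 3 genes, and the 3 were called whichever of the 6 livers was left out. At ZT20 3 of 9 were higher, against 0.812% of all genes. Vnn1 read 9.95, 6.74 and 6.45 CPM in WT and 32.7, 50.9 and 39.3 CPM in GR LKO (log2 fold change 2.44, SE 0.23, adjusted p = 0.00873 by edgeR), and lost its call without WT replicate 2 (0.0534) and WT replicate 3 (0.063). Vnn3 read 38.4, 41.2 and 45.8 CPM and 81.3, 108 and 93.4 CPM (log2 fold change 1.20, SE 0.12, adjusted p = 0.0118 by edgeR), lost without WT replicate 1 (0.074), WT replicate 2 (0.0688) and WT replicate 3 (0.0665). Cyp4a32 was called too (log2 fold change 1.25, SE 0.16, adjusted p = 0.017 by edgeR), and was lost without WT replicate 1 (0.0948), WT replicate 2 (0.0662), WT replicate 3 (0.106) and GR LKO replicate 2 (0.053), while Fabp1 passed without GR LKO replicate 1 (0.0254). All 3 genes were higher in each GR LKO liver than in each WT liver at ZT20. DESeq2 added to the cal. res. calls, all higher in GR LKO and with the share of all genes it called in brackets, Cd36, Aldh3a2, Fabp1 and Cyp4a32 at ZT0 (2.53%), Cd36 and Aldh3a2 at ZT4 (2.56%), Aldh3a2, Vnn1 and Cyp4a10 at ZT8 (4.04%), Vnn1 and Fabp1 at ZT12 (12.1%), Cyp4a32 at ZT16 (5.41%), and Aldh3a2, Cyp4a31 and Fabp1 at ZT20 (4.00%).

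On ctrl. the calls at single times were also all in the direction of higher levels in GR LKO. At ZT0 3 of 9 were higher, against 0.443% of all genes. Vnn1 read 11.6, 6.48 and 10.1 CPM in WT and 67.9, 40.02 and 39.8 CPM in GR LKO (log2 fold change 2.39, SE 0.28, adjusted p = 0.0337 by edgeR), lost without WT replicate 1 (0.106), WT replicate 2 (0.114), GR LKO replicate 1 (0.0823), GR LKO replicate 2 (0.0811) and GR LKO replicate 3 (0.0891). Vnn3 read 23.8, 31.9 and 29.9 CPM and 73.7, 67.01 and 76.2 CPM (log2 fold change 1.32, SE 0.12, adjusted p = 0.0237 by edgeR), lost without WT replicate 2 (0.0955), GR LKO replicate 1 (0.0878) and GR LKO replicate 3 (0.088). Cd36 read 41.5, 28.8 and 47.9 CPM and 104, 87.03 and 96.9 CPM (log2 fold change 1.27, SE 0.18, adjusted p = 0.0442 by edgeR), lost without WT replicate 1 (0.122), WT replicate 2 (0.0958), GR LKO replicate 1 (0.18), GR LKO replicate 2 (0.106) and GR LKO replicate 3 (0.137), and in a fit of all ctrl. libraries (0.0918). For these 3 genes the groups did not overlap at ZT0, although the calls were near the threshold. Without GR LKO replicate 2 Cyp4a14 passed (adjusted p = 0.0403 by edgeR), and without WT replicate 3 Cyp4a10 (0.0436). At ZT4 0 of 9 passed by edgeR, where it called 0.144% of all genes higher, with 7 at an unadjusted p under 0.05 (9.75% of all genes) and 6 called by DESeq2 (1.15% of all genes). At ZT8 3 of 9 were higher, against 0.838% of all genes. Cyp4a10 read 134, 151, 131 and 157 CPM in WT and 281, 389, 399.6 and 286 CPM in GR LKO (log2 fold change 1.24, SE 0.13, adjusted p = 0.00254 by edgeR), a difference with no overlap that was called whichever of the 8 livers was left out but not in a fit of all ctrl. libraries (log2 fold change 1.24, adjusted p = 0.419 by edgeR).

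The other ctrl. calls at ZT8 were Cyp4a32 (log2 fold change 0.64, SE 0.11, adjusted p = 0.0215 by edgeR), lost without WT replicate 1 (0.0642), WT replicate 2 (0.0735), WT replicate 3 (0.0562), WT replicate 4 (0.0547), GR LKO replicate 1 (0.0586) and GR LKO replicate 2 (0.066), and Aldh3a2 (log2 fold change 0.44, SE 0.08, adjusted p = 0.0257 by edgeR), lost without WT replicate 1 (0.0914), WT replicate 2 (0.063), WT replicate 3 (0.0611), GR LKO replicate 1 (0.085), GR LKO replicate 2 (0.074) and GR LKO replicate 4 (0.068). In a fit of all ctrl. libraries neither was called (edgeR adjusted p = 0.382 for Cyp4a32 and 0.543 for Aldh3a2), so that the count at ZT8 was 0. Without WT replicate 4 of ZT8, Cd36 (adjusted p = 0.0328 by edgeR) and Cyp4a14 (0.0211) passed. At ZT12 1 of 9 was higher on ctrl., against 0.814% of all genes. It was Vnn1, at 27.3, 26.9, 15.4 and 12.6 CPM in WT and 74.6, 52.7, 50.7 and 50.4 CPM in GR LKO (log2 fold change 1.47, SE 0.26, adjusted p = 0.0233 by edgeR), lost without WT replicate 3 (0.0692), GR LKO replicate 1 (0.0618) and GR LKO replicate 2 (0.0513), and in a fit of all ctrl. libraries (0.0772). Cyp4a14 at that time read 50.1, 13.3, 2.88 and 11.4 CPM in WT and 163, 164, 175 and 78.9 CPM in GR LKO (log2 fold change 2.91, SE 0.68, adjusted p = 0.073 by edgeR). WT replicate 1 held far more Cyp4a14 than the other WT livers, and without it Cyp4a14 (adjusted p = 0.00892 by edgeR), Cyp4a10 (0.0366) and Aldh3a2 (0.0361) passed, with a count of 4. At ZT16 1 of 9 was higher, against 1.03% of all genes. It was Fabp1, at 3001, 2982, 2656 and 2716 CPM in WT and 4009, 3958 and 3417 CPM in GR LKO (log2 fold change 0.42, SE 0.08, adjusted p = 0.0475 by edgeR), lost without WT replicate 1 (0.0828), WT replicate 2 (0.114), WT replicate 3 (0.0872), WT replicate 4 (0.127), GR LKO replicate 1 (0.134), GR LKO replicate 2 (0.139) and GR LKO replicate 3 (0.0524), of which WT replicate 2 is the library with pancreatic markers, in a fit of all ctrl. libraries (0.149) and without the filter on low counts (0.0717). At ZT20 0 of 9 passed by edgeR, where it called 0.227% of all genes higher, with 2 at an unadjusted p under 0.05 (11.3% of all genes) and 2 called by DESeq2 (1.72% of all genes). The ctrl. calls at ZT12 and ZT16 thus rested on small margins. A fit of all ctrl. libraries also added calls, each higher in GR LKO (edgeR adjusted p in brackets). At ZT0 these were Aldh3a2 (0.0297) and Cyp4a32 (0.0191), and at ZT16 Aldh3a2 (0.0295). At ZT12 they were Cyp4a14 (0.0212), Cd36 (0.0332), Aldh3a2 (0.0111) and Cyp4a10 (0.0114). DESeq2 added to the ctrl. calls, all higher in GR LKO and with the share of all genes it called in brackets, Aldh3a2, Cyp4a31, Cyp4a32 and Cyp4a10 at ZT0 (2.38%), Cd36, Aldh3a2, Cyp4a14, Vnn1, Fabp1 and Cyp4a10 at ZT4 (1.15%), Cd36 at ZT8 (2.13%), Aldh3a2 and Cyp4a10 at ZT12 (3.30%), Aldh3a2 at ZT16 (3.70%), and Cd36 and Aldh3a2 at ZT20 (1.72%).

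**Figure D3:**
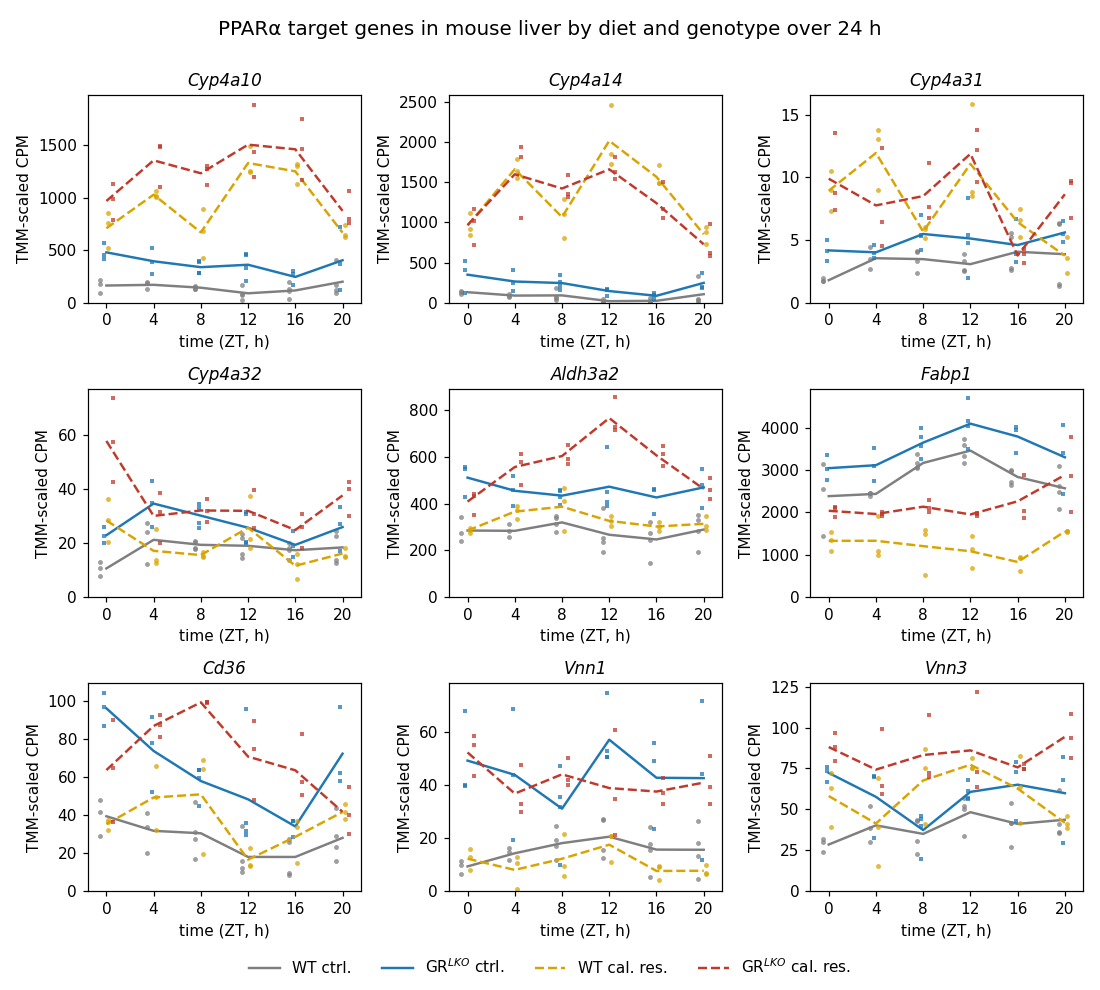
TMM-scaled CPM of the 9 genes against time of day (ZT in hours) for WT and GR LKO livers on ctrl. and cal. res., with a point for each liver (3 or 4 a group, shifted sideways for clarity) and lines through the group means. In GR LKO cal. res. livers the mean of Aldh3a2 runs from 409 CPM at ZT0 to 767 CPM at ZT12, and Vnn1 in WT cal. res. livers ranges over 0.815 to 21.6 CPM.

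The step from ZT12 to ZT16 goes from the end of the daily fast to the fed state. In WT cal. res. livers 2 of 9 genes fell, where 40.0% of all genes were called in either direction (2471 higher and 2234 lower of 11768 tested). Cyp4a32 went from 18.1, 37.5 and 21.3 CPM to 6.68, 12.3 and 15.8 CPM (log2 fold change -1.12, SE 0.37, adjusted p = 0.0456 by edgeR), lost without WT ZT12 replicate 2 (0.127), WT ZT12 replicate 3 (0.0666), WT ZT16 replicate 1 (0.108) and WT ZT16 replicate 2 (0.0931). Vnn1 went from 11.04, 20.9 and 20.7 CPM to 9.20, 9.66 and 4.08 CPM (log2 fold change -1.17, SE 0.36, adjusted p = 0.038 by edgeR), lost without WT ZT12 replicate 2 (0.0998), WT ZT12 replicate 3 (0.109), WT ZT16 replicate 1 (0.0679) and WT ZT16 replicate 3 (0.0707), which include the ZT12 liver with pancreatic markers, and in a fit of all cal. res. libraries (0.0728). Cyp4a14 read 2459, 1853 and 1724 CPM and then 1493, 1491 and 1708 CPM (log2 fold change -0.33, adjusted p = 0.103 by edgeR), and DESeq2 called it (adjusted p = 0.0436). Cyp4a31 went from 8.87, 15.8 and 8.50 CPM to 5.22, 6.63 and 7.44 CPM with no overlap, and was called by DESeq2 (log2 fold change -0.76, adjusted p = 0.0409) but not by edgeR (adjusted p = 0.0673). Cd36 was not called by edgeR with all 6 livers, but passed by DESeq2 (log2 fold change 0.80, adjusted p = 0.0456) and by edgeR without WT ZT16 replicate 2 (log2 fold change 1.11, adjusted p = 0.0163). In GR LKO cal. res. livers 1 of 9 fell, where 37.8% of all genes were called in either direction (2395 higher and 2121 lower of 11943 tested). It was Cyp4a31, from 13.8, 12.2 and 9.63 CPM to 4.26, 3.15 and 3.90 CPM (log2 fold change -1.62, SE 0.20, adjusted p = 0.000765 by edgeR), which passed without any 1 of the 6 livers, while Cyp4a14 passed by DESeq2 (adjusted p = 0.0194) and by edgeR without GR LKO ZT16 replicate 3 (adjusted p = 0.012). Aldh3a2 went from 715, 730.1 and 855 CPM to 559.7, 612 and 649 CPM in these livers with no overlap, and passed by DESeq2 (log2 fold change -0.32, adjusted p = 0.012) and by edgeR with RLE factors (adjusted p = 0.0459), though not with TMM factors (adjusted p = 0.0538). In WT ctrl. livers 1 of 9 fell, where 13.4% of all genes were called in either direction (784 higher and 756 lower of 11452 tested). It was Fabp1 (log2 fold change -0.28, SE 0.07, adjusted p = 0.0316 by edgeR), at 3165, 3601, 3738 and 3344 CPM and then 3001, 2982, 2656 and 2716 CPM, lost without WT ZT12 replicate 2 (0.0732), WT ZT12 replicate 3 (0.076), WT ZT16 replicate 1 (0.0538), WT ZT16 replicate 2 (0.0508), WT ZT16 replicate 3 (0.0832) and WT ZT16 replicate 4 (0.0884), in a fit of all ctrl. libraries (0.187) and without the filter on low counts (0.0635). In GR LKO ctrl. livers 0 of 9 passed by edgeR or by DESeq2 and 0 had an unadjusted p under 0.05, where the shares of all genes were 9.06%, 8.16% and 24.0%.

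Daily rhythms were tested with JTK_CYCLE at a period of 24 h in each genotype and diet. In WT cal. res. livers 0 of 9 genes were rhythmic (0 at an unadjusted p under 0.05 as well), where 21.7% of all genes were called and 32.1% had such a p. In GR LKO cal. res. livers 2 of 9 were rhythmic, where 19.8% of all genes were called. They were Aldh3a2 (peak at 12 h, exact JTK_CYCLE adjusted p = 0.00126) and Cd36 (peak at 8 h, exact JTK_CYCLE adjusted p = 0.0136), and both were called whichever of the 18 livers was left out. The group means of Cd36 in these livers ran from 41.7 CPM at ZT20 to 99.2 CPM at ZT8. In WT ctrl. livers 2 of 9 were rhythmic, where 27.3% of all genes were called. Fabp1 (peak at 12 h, exact JTK_CYCLE adjusted p = 0.00796) was called in 22 of 22 sets with a liver left out, while Cyp4a14 (peak at 0 h, exact JTK_CYCLE adjusted p = 0.0471) was called in 6 of 22. In GR LKO ctrl. livers 2 of 9 were rhythmic, where 22.7% of all genes were called. Cd36 (peak at 0 h, exact JTK_CYCLE adjusted p = 0.033) was called in 10 of 20 sets with a liver left out, and Fabp1 (peak at 12 h, exact JTK_CYCLE adjusted p = 0.0406) in 5 of 20.

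Rhythm calls near the threshold depended on single livers. The Cyp4a14 rhythm of WT ctrl. livers was lost (exact JTK_CYCLE adjusted p in brackets) without ZT0 replicate 1 (0.0971), ZT0 replicate 2 (0.0979), ZT0 replicate 3 (0.0992), ZT4 replicate 1 (0.0876), ZT4 replicate 2 (0.0887), ZT4 replicate 3 (0.0749), ZT8 replicate 1 (0.0692), ZT8 replicate 2 (0.0578), ZT12 replicate 2 (0.0959), ZT12 replicate 3 (0.135), ZT12 replicate 4 (0.0937), ZT16 replicate 1 (0.0572), ZT16 replicate 2 (0.0679), ZT16 replicate 3 (0.0574), ZT16 replicate 4 (0.0692) and ZT20 replicate 3 (0.0562). In GR LKO ctrl. livers the Cd36 rhythm was lost without ZT0 replicate 1 (0.0906), ZT0 replicate 3 (0.0789), ZT4 replicate 1 (0.0504), ZT4 replicate 3 (0.0631), ZT8 replicate 1 (0.0584), ZT12 replicate 1 (0.0742), ZT12 replicate 2 (0.0737), ZT12 replicate 4 (0.0699), ZT16 replicate 1 (0.0586) and ZT16 replicate 3 (0.0578). The Fabp1 rhythm of GR LKO ctrl. livers was lost without ZT0 replicate 2 (0.0767), ZT0 replicate 3 (0.0789), ZT4 replicate 1 (0.0504), ZT4 replicate 2 (0.0739), ZT4 replicate 3 (0.0509), ZT8 replicate 2 (0.0592), ZT8 replicate 3 (0.0564), ZT8 replicate 4 (0.0574), ZT12 replicate 1 (0.0903), ZT12 replicate 3 (0.104), ZT12 replicate 4 (0.0854), ZT16 replicate 1 (0.0586), ZT16 replicate 2 (0.0594), ZT16 replicate 3 (0.0578) and ZT20 replicate 3 (0.0731), whereas the Fabp1 rhythm of WT ctrl. livers and those of Aldh3a2 and Cd36 in GR LKO cal. res. livers were kept throughout. Vnn3 became rhythmic in GR LKO ctrl. livers without ZT20 replicate 1 (0.0188), and Cyp4a14 in GR LKO cal. res. livers without ZT8 replicate 1 (0.0414) and ZT8 replicate 3 (0.0398).

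Whether the daily profile itself differed between genotypes was tested with limma on a cosine curve. On cal. res. 0 of 9 genes passed, with 2 at an unadjusted p under 0.05, where 0.659% of all genes were called and 12.1% had such a p, and on ctrl. 0 of 9 passed, with 0 at an unadjusted p under 0.05, where 0.366% were called and 9.83% had such a p. Aldh3a2 had an adjusted p of 0.0973 on cal. res. by limma (0.0638 to 0.119 over the alternatives), and Cd36 0.295 (0.185 to 0.386). With the 6 time points as separate levels in place of the curve, limma called 1 of 9 on cal. res., Cyp4a31 (adjusted p = 0.0317, from 0.0317 to 0.94 over the alternatives). A rhythm called in GR LKO and not in WT livers was therefore not shown to differ between them.

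PPARα itself and its partners are given beside the 9 genes. Ppara had a log2 fold change of 0.34 in GR LKO over WT on cal. res. (SE 0.07, edgeR adjusted p = 0.000336) and of 0.20 on ctrl. (SE 0.08, edgeR adjusted p = 0.0904). Ppara passed neither in the diet comparison (log2 fold change 0.19, adjusted p = 0.183 by edgeR) nor with CORT (log2 fold change 0.56, adjusted p = 0.0735 by edgeR). The diet interaction of Ppara did not pass (edgeR adjusted p = 0.59). Rxra fell in the diet comparison (log2 fold change -0.33, adjusted p = 0.00955 by edgeR), rose with CORT (log2 fold change 0.51, adjusted p = 0.0179 by edgeR) and did not pass by genotype (edgeR adjusted p = 0.667 on cal. res. and 0.175 on ctrl.). The coactivator gene Ppargc1a did not pass with CORT (log2 fold change 1.55, adjusted p = 0.1 by edgeR) and was lower in GR LKO on cal. res. (log2 fold change -0.37, adjusted p = 0.00739 by edgeR).

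Of the receptor and its partners, edgeR called 11 of 16 genes (9 higher, 2 lower, median 0.55, 47.1% of all genes) in the diet comparison, most strongly Ppargc1a (1.94, adjusted p = 6.4e-05), the coregulator and phosphatidate phosphatase gene Lpin1 (1.81, adjusted p = 0.000418) and the related receptor gene Pparg (-1.33, adjusted p = 0.0116). With CORT it called 5 of 16 genes (5 higher, 0 lower, median 0.45, 8.11% of all genes), most strongly Lpin1 (4.51, adjusted p = 0.0374), the coactivator gene Ppargc1b (1.23, adjusted p = 0.0196) and the nuclear receptor gene Hnf4a (0.84, adjusted p = 0.0229). By genotype at ZT12 it called 7 of 16 genes (1 higher, 6 lower, median -0.13, 15.3% of all genes) on cal. res., most strongly Lpin1 (-4.04, adjusted p = 0.00149), Pparg (3.25, adjusted p = 0.00186) and Ppargc1a (-0.97, adjusted p = 0.00732), and 2 of 16 genes (1 higher, 1 lower, median -0.13, 2.08% of all genes) on ctrl., Pparg (1.69, adjusted p = 0.0368) and Hnf4a (-0.48, adjusted p = 0.037). In brackets after a count stand its directions, its median log2 fold change and the share of all genes tested that edgeR called in the same fit, and after a gene its log2 fold change. Over all time points by genotype, edgeR called 8 of 16 genes (2 higher, 6 lower, median -0.12, 30.0% of all genes) on cal. res. and 3 of 16 genes (1 higher, 2 lower, median -0.05, 17.6% of all genes) on ctrl.

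Of other PPARα targets by genotype over all time points, edgeR called 31 of 48 genes (27 higher, 4 lower, median 0.27, 30.0% of all genes) on cal. res., against 14.3% of all genes called higher. On ctrl. it called 31 of 49 genes (31 higher, 0 lower, median 0.28, 17.6% of all genes), against 9.50% called higher. The bifunctional enzyme gene Ehhadh (0.59 on cal. res. and 0.51 on ctrl., log2 fold change) and the lipid droplet coat gene Plin2 (0.63 and 0.46) passed on both diets. The carnitine transferase gene Cpt1a passed on cal. res. (0.29) and Pdk4 on ctrl. (0.60). Lower on cal. res. were Angptl4 (-0.74), the hepatokine gene Fgf21 (-1.18) and the thioesterase gene Acot1 (-0.49), which was higher on ctrl. (0.44). Acot1 has close paralogs, and how far its reads are shared with them was not measured. At ZT12 edgeR called 17 of 46 genes (14 higher, 3 lower, median 0.22, 15.3% of all genes) by genotype on cal. res., where 7.42% of all genes were called higher, most strongly the lipid droplet gene Plin5 (-2.47, adjusted p = 0.000798), the peroxisomal thiolase gene Acaa1b (2.02, adjusted p = 0.0008) and the peroxisomal transporter gene Abcd2 (2.001, adjusted p = 0.000178), and 4 of 46 genes (3 higher, 1 lower, median 0.14, 2.08% of all genes) on ctrl., most strongly the peroxisomal thioesterase gene Acot3 (3.32, adjusted p = 0.00984), Abcd2 (2.49, adjusted p = 0.0101) and the peroxisomal thioesterase gene Acot4 (1.29, adjusted p = 0.0266).

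In the diet comparison edgeR called 30 of 47 genes (11 higher, 19 lower, median -0.19, 47.1% of all genes) among other PPARα targets, against 23.5% of all genes called higher and 23.6% called lower, most strongly the pyruvate dehydrogenase kinase gene Pdk4 (5.53, adjusted p = 0.00149), Acot3 (2.63, adjusted p = 0.00164) and the carnitine transferase gene Cpt1b (2.07, adjusted p = 0.000696). Acot1 (1.93), Angptl4 (1.37) and Ehhadh (1.00) rose with Cyp4a10 and Cyp4a14, and Cpt1a fell (-0.45) with Fabp1 and Vnn1, while Fgf21 (0.38) and Plin2 (-0.45) did not pass. With CORT, where none of the 9 passed, edgeR called 8 of 45 genes (5 higher, 3 lower, median -0.03, 8.11% of all genes), most strongly the lipolysis inhibitor gene G0s2 (-3.61, adjusted p = 0.02), the lipoprotein lipase inhibitor gene Angptl4 (2.25, adjusted p = 0.00128) and Pdk4 (-1.37, adjusted p = 0.0194). Cpt1a rose (0.83) and Plin2 fell (-0.86) with CORT on the log2 scale, and Acot1 (-0.84) and Ehhadh (-0.20) did not pass. Fgf21 had too few counts to be tested there.

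Of the relatives of the Cyp4a genes and of Aldh3a2 in ω-oxidation, edgeR called 11 of 18 genes (5 higher, 6 lower, median -0.12, 47.1% of all genes) in the diet comparison, most strongly the ω-hydroxylase gene Cyp4a12a (-7.92, adjusted p = 0.000214), its near-copy Cyp4a12b (-7.11, adjusted p = 0.000113) and the alcohol dehydrogenase gene Adh4 (-1.79, adjusted p = 0.000194), so that Cyp4a12a and Cyp4a12b fell on cal. res. while Cyp4a10 and Cyp4a14 rose. With CORT it called 1 of 15 genes (0 higher, 1 lower, median -0.03, 8.11% of all genes), the ω-hydroxylase gene Cyp4f14 (-0.53, adjusted p = 0.0221). By genotype at ZT12 it called 5 of 16 genes (3 higher, 2 lower, median 0.28, 15.3% of all genes) on cal. res., most strongly Adh4 (0.87, adjusted p = 0.009), Cyp4f14 (-0.84, adjusted p = 0.0112) and the aldehyde dehydrogenase gene Aldh1a1 (0.83, adjusted p = 0.00556), and 0 of 16 on ctrl. (2.08% of all genes). Over all time points by genotype it called 9 of 18 genes (7 higher, 2 lower, median 0.01, 30.0% of all genes) on cal. res. and 7 of 17 genes (5 higher, 2 lower, median 0.00, 17.6% of all genes) on ctrl.

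Of the coenzyme A and pantothenate genes, which stand next to Vnn1 and Vnn3 in metabolism, edgeR called 6 of 10 genes (3 higher, 3 lower, median -0.19, 47.1% of all genes) in the diet comparison, most strongly the peroxisomal coenzyme A hydrolase gene Nudt7 (-4.39, adjusted p = 3.33e-05), the pantothenate kinase gene Pank3 (0.90, adjusted p = 0.000528) and the phosphopantothenoylcysteine synthetase gene Ppcs (-0.62, adjusted p = 0.00253). Nudt7 thus fell together with Vnn1 on cal. res. With CORT it called 1 of 10 genes (1 higher, 0 lower, median 0.03, 8.11% of all genes), the pantothenate kinase gene Pank1 (0.49, adjusted p = 0.0383). By genotype at ZT12 it called 1 of 10 genes (1 higher, 0 lower, median 0.10, 15.3% of all genes) on cal. res., Nudt7 (1.32, adjusted p = 0.015), and 0 of 10 on ctrl. (2.08% of all genes), and over all time points 3 of 10 genes (2 higher, 1 lower, median 0.02, 30.0% of all genes) on cal. res. and 0 of 10 on ctrl. (17.6% of all genes). Nudt7 was higher in GR LKO livers at ZT12 on cal. res., as Vnn1 was at ZT0, ZT16 and ZT20. Of the genes for fatty acid uptake and binding beside Fabp1 and Cd36, edgeR called 9 of 14 genes (5 higher, 4 lower, median 0.03, 47.1% of all genes) in the diet comparison, most strongly the acyl-CoA synthetase family gene Slc27a3 (1.68, adjusted p = 0.0021), the acyl-CoA synthetase gene Acsl3 (1.603, adjusted p = 0.000192) and the fatty acid-binding protein gene Fabp5 (-1.40, adjusted p = 0.000436). With CORT it called 1 of 14 genes (0 higher, 1 lower, median -0.07, 8.11% of all genes), Acsl3 (-0.62, adjusted p = 0.0375). By genotype at ZT12 it called 3 of 13 genes (2 higher, 1 lower, median -0.13, 15.3% of all genes) on cal. res., Fabp5 (1.33, adjusted p = 0.00609), Acsl3 (0.86, adjusted p = 0.00085) and the lipoprotein receptor gene Scarb1 (-0.76, adjusted p = 0.00392), and 0 of 13 on ctrl. (2.08% of all genes). Over all time points by genotype it called 5 of 14 genes (3 higher, 2 lower, median -0.01, 30.0% of all genes) on cal. res. and 5 of 14 genes (4 higher, 1 lower, median 0.02, 17.6% of all genes) on ctrl.

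Cd36 and the binding-protein genes are also expressed outside hepatocytes, so markers of other cells are given beside the genotype results. Adipocyte markers summed to 2.88 to 7.52 CPM with a median of 4.93 in WT and 5.66 to 53.7 CPM with a median of 16.6 in GR LKO livers on ctrl., and to 5.19 to 9.42 CPM with a median of 6.85 in WT and 5.05 to 22.2 CPM with a median of 7.36 in GR LKO livers on cal. res. The increase on ctrl. was that of Cfd, the most abundant of the 6 in GR LKO ctrl. livers, which was at 0 in 16 of 22 WT livers and averaged 16.5 CPM in GR LKO livers. On cal. res. Cfd was at 0 in 18 of 18 WT livers and averaged 0.809 CPM in GR LKO. The defining adipocyte genes were at or near 0, with Plin1 at 0 in every library of the time series, Lep at 0 in all but 1 and Adipoq at most 1.38 CPM. Endothelial markers were higher in GR LKO on cal. res. for 4 of 6 (summed level 149 to 214 CPM with a median of 171 in WT and 167 to 239 CPM with a median of 201 in GR LKO) and on ctrl. for 0 of 6 (74.01 to 182 CPM with a median of 132 and 74.2 to 185 CPM with a median of 129). Over all time points none of the 8 Kupffer cell and myeloid markers passed by edgeR on either diet (summed level on cal. res. 45.5 to 312 CPM with a median of 132 and 93.6 to 275 CPM with a median of 139.6). At ZT12 on cal. res., where Cd36 and Aldh3a2 were called, 4 of the 8 were higher in GR LKO, Clec4f, Cd5l, Csf1r and Vsig4 (summed level of the 8 45.5 to 72.6 CPM in WT and 101 to 129 CPM in GR LKO, led by Clec4f), and so was 1 of the 6 endothelial markers, Lyve1 (summed level of the 6 149 to 180.3 CPM and 199 to 223 CPM, led by Clec4g). At the other 5 times on cal. res. and at all 6 on ctrl. none of the markers of these 2 kinds passed. Hepatocyte markers were lower in GR LKO for 5 of 8 on cal. res. (summed level 119322 to 186483 CPM with a median of 140747 and 110885 to 144943 CPM with a median of 121486) and for 6 of 8 on ctrl. (84569 to 118893 CPM with a median of 104392 and 76431 to 106638 CPM with a median of 86724), while the 9 genes were higher or not called. The erythrocyte gene Alas2 was also higher in GR LKO on both diets over all time points, 1 of 5 tested, and on cal. res. so were the cholangiocyte gene Spp1, 1 of 4, and the lymphocyte gene Cd79a, 1 of 4, while 0 of 6 stellate markers passed on either diet. At ZT12 on cal. res. Alas2 was higher in GR LKO, and lower were the cholangiocyte gene Sox9 and 5 of 8 hepatocyte markers, Hnf4a, Cyp2e1, Cps1, Alb and Apoa1 (summed level of the 8 179414 to 186483 CPM in WT and 127904 to 144943 CPM in GR LKO, led by Alb). The part of other cells in the results for Cd36 was not tested.

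The genes whose levels went most like each of the 9 were found by Pearson correlation of log2 CPM over the 24 group means of the time series, each diet centred on its own mean, among 8872 other genes. These correlations are descriptive, and the group means share livers and batches. Cyp4a10 was most like Cyp4a14 (0.88), Cyp2b9 (0.86) and Acot2 (0.80), and Cyp4a14 most like Cyp4a10 (0.88), Cyp2c38 (0.82) and Tmem98 (0.76). Each of these 2 genes was the closest match of the other. The low-abundance paralogs went with other genes, Cyp4a32 with Bphl (0.85), Adhfe1 (0.83) and 1110032A03Rik (0.82) and Cyp4a31 with Clk3 (0.73), Dennd6a (0.72) and Nap1l1 (0.68). Aldh3a2 was most like Slc22a26 (0.94), Slc22a27 (0.94) and Suclg2 (0.94). Fabp1 was most like 1110032A03Rik (0.90), Ces1f (0.87) and Ghr (0.87), and Cd36 most like Rtn4 (0.92), Pltp (0.89) and Tmem98 (0.89). Vnn1 was most like Cryzl2 (0.91) and Pts (0.91), while Vnn3 was most like Vnn1 (0.86) and Lyplal1 (0.85).

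Promoter sequence was looked at because all 9 genes were higher in GR LKO livers on ctrl.. In the RefSeq table (GRCm38.p6), which holds 250 bases before each start, 5 of the 9 genes had an entry (Aldh3a2, Cd36, Cyp4a32, Fabp1 and Vnn3), and Cyp4a10, Cyp4a14, Cyp4a31 and Vnn1 had none. The direct repeat AGGTCANAGGTCA, searched on both strands, was in 11 of 32851 promoters (0.0335%) and in none of the 5. With up to 2 mismatches it was in 1063 (3.24%) and in 2 of the 5, Fabp1 and Cd36, whose sequences are shown for that reason with the match in capitals. The hexamer AGGTCA, the unit of the repeat, was in 14.0% of promoters and in 2 of the 5, Fabp1 and Cd36. In Fabp1 a hexamer 67 to 62 bases before the start lies within the match to the repeat, and another, at 9 to 4, does not. That of Cd36, at 228 to 223, lies outside its match to the repeat. The letters ACANNNTGT were in 5.84% of promoters and in 0 of the 5. The Fabp1 stretch lies upstream of the gene on the plus strand (chr6:71199629-71199826, GRCm38.p6), and its match on the opposite strand, with 1 mismatch, spans 67 to 55 bases before the RefSeq start. It is printed as far as the first exon of the GENCODE model, so that the last 52 of the 250 bases are left off. The Cd36 stretch lies in an intron of a longer transcript on the minus strand (chr5:17835897-17836146, GRCm38.p6), and its match on the opposite strand, with 2 mismatches, spans 63 to 51 bases before the start. Both are printed 5′ to 3′ along the strand of the gene, and a match describes letters only.
Fabp1: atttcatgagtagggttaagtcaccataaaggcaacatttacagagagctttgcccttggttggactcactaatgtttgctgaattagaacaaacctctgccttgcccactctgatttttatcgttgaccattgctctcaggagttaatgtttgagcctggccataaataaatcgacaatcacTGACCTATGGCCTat
Cd36: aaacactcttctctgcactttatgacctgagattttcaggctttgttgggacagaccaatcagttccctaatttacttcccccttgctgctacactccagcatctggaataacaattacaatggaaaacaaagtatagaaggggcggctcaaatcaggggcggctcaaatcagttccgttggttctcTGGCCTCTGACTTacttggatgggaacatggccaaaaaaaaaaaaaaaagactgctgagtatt

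These results hold for bulk liver RNA of male mice. Groups held 3 or 4 mice, and at single time points calls for Vnn1, Vnn3, Cd36, Cyp4a32, Aldh3a2 and Fabp1 were lost without a single liver. The Fabp1 call on ctrl. at ZT16 was lost whichever of the 7 livers was left out, and the Aldh3a2 call on ctrl. at ZT8 was lost with 6 of the 8 left out in turn. Differences between the diets of the time series are not separable from the tables they came from, and levels of Cyp4a10, Cyp4a31 and Cyp4a32 depend on how reads shared by these paralogs were divided.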

How the data were processed

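Bulk RNA from 90 mouse livers in 28 groups was used as 4 tables of 27654 Ensembl genes, of which 27244 carry a symbol in GENCODE M21 (GRCm38) and 410 do not. The authors checked reads with FastQC and MultiQC, quantified them with Salmon and deposited an estimated count per gene, not normalized. Their notes name mm10 as the build, and the transcript annotation is not stated. For the tests here, estimated counts were rounded to whole numbers. A table of 6 columns of VST values was not used. The members and gene lists were chosen with earlier results of these data known.

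Each comparison was fitted with edgeR 4.0.16 within a table (TMM factors, filterByExpr at a count of 10, quasi-likelihood F test, Benjamini-Hochberg). Interactions and the diet contrast of the time series joined 2 tables in a fit. DESeq2 1.42.0, RLE factors, no filter, fits of all libraries of a diet, and each library left out were alternatives. Fits over all time points, with a term for each time point, were added after seeing the data. Rhythms were tested with an implementation of JTK_CYCLE on VST values computed here from the counts (period 24 h, steps of 4 h, exact null distribution), and differences in rhythm with limma 3.58.1 on a cosine curve. R 4.3.3, Python 3.11.15, numpy 2.4.6, pandas 2.3.3 and matplotlib 3.10.9 were used, and the code was tested on simulated data. No 2 libraries of a group were technical repeats of each other, since over 102 pairs the chi-square per degree of freedom was at least 10.4, with a median of 22.5.

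Genes named are the 9 genes in every comparison, Nr3c1, Ppara with Rxra and Ppargc1a, 7 further targets (Acot1, Angptl4, Cpt1a, Ehhadh, Fgf21, Pdk4 and Plin2), up to 3 called genes of each list with the largest difference in the diet, CORT and ZT12 genotype comparisons, and for likeness up to 3 genes with the highest Pearson correlation, among genes with a mean of at least 5 CPM. A few genes that this rule also names are not reported here. Marker genes of other cells and of tissue admixture, and the libraries that stand apart in them, were named after their values were seen. Gene lists held the receptor and its partners (16 genes), other PPARα targets (50), ω-oxidation and family relatives (23), coenzyme A and pantothenate (11), and fatty acid uptake and binding (15). Promoters came from a RefSeq table for GRCm38.p6 with 250 bases before each start, searched on both strands.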

Additional observations from a re-analysis of the deposited data

Results flagged for a closer look

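Over 60 sets of 4 libraries (a gene in a group), a single library lay far from the others in 4 by Dixon's ratio of gap to range, and chance flags about 1 in 20 groups. Cyp4a14 in GR LKO ctrl. livers at ZT12 was lowest in replicate 4 (ratio 0.879), at 78.9 CPM against 163, 164 and 175 CPM in the others. Cyp4a14 in WT ctrl. livers at ZT20 was highest in replicate 3 (ratio 0.898), at 332 CPM against 10.3, 39.5 and 43.3 CPM. Vnn1 in GR LKO ctrl. livers at ZT12 was highest in replicate 1 (ratio 0.905), at 74.6 CPM against 50.4, 50.7 and 52.7 CPM. Cd36 in GR LKO ctrl. livers at ZT12 was highest in replicate 3 (ratio 0.906), at 95.95 CPM against 29.7, 31.6 and 35.9 CPM.

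For 3 genes the genotype effect over all time points differed between the diets by the interaction test of edgeR. The log2 difference, cal. res. minus ctrl., was -1.82 for Cyp4a14, 0.55 for Fabp1 and -0.94 for Cyp4a10. The diets of the time series stand in separate tables, so a difference between diets may also reflect the tables.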

How the results depend on the processing

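Every value for the 9 genes kept its direction where it was called, except Cyp4a32 in the diet comparison, at 0.43 (log2) from the time-series livers, and 0.54 without WT cal. res. ZT12 replicate 3, against -1.69. Over the single-gene results, DESeq2 added 40 calls and left 203 as they were, RLE factors added 2 of 243, no filter lost 2, and fits of all libraries of a diet added 17 and lost 8. Leaving out a library or, in the fits over all time points, also a time point or a replicate number added 21, lost 82 and left 1967 as they were. The cause was not tested.

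Some moves in the number of the 9 genes called were smaller than those listed next. DESeq2 called 7 for the diet effect, where it called 33.0% of all genes, adding Cd36 (DESeq2 adjusted p = 0.0141) and Vnn3 (0.0265). A fit of all cal. res. libraries added Fabp1 by genotype at ZT12 (edgeR adjusted p = 0.0465). The number called moved from or to 0, or by over 1.5 times, as follows. With DESeq2 it was for the genotype effect on cal. res. 5 at ZT0, 2 at ZT4, 4 at ZT8, 4 at ZT12 and 6 at ZT20, the genotype effect on ctrl. 7 at ZT0, 6 at ZT4, 3 at ZT12, 2 at ZT16 and 2 at ZT20, the interaction 1 at ZT12 and 1 at ZT16, ZT12 to ZT16 in WT cal. res. 5 (26.6% of all genes) and ZT12 to ZT16 in GR LKO cal. res. 3 (24.8% of all genes). The shares for the genotype effects and interactions are given above. With a fit of all libraries of the diet it was for the genotype effect on cal. res. 2 at ZT0, 2 at ZT4, 4 at ZT8 and 5 at ZT20, the genotype effect on ctrl. 0 at ZT8 and 4 at ZT12, ZT12 to ZT16 in WT cal. res. 1 and ZT12 to ZT16 in WT ctrl. 0. Without the filter it was for the genotype effect on ctrl. 0 at ZT16 and ZT12 to ZT16 in WT ctrl. 0, and with RLE factors for ZT12 to ZT16 in GR LKO cal. res. 2. The interaction over all time points called 1 without ZT8, 1 without ZT12 and 1 without ZT16. The rhythm difference on cal. res. called 1 with the time points as 6 levels. The cause was not tested.

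With a library left out in turn, the count for the diet effect was 5 to 7, for the CORT effect 0, for the genotype effect on cal. res. 0 to 3 at ZT0, 0 to 1 at ZT4, 0 to 2 at ZT8, 2 to 3 at ZT12, 3 at ZT16 and 0 to 4 at ZT20, and on ctrl. 0 to 4 at ZT0, 0 at ZT4, 1 to 4 at ZT8, 0 to 4 at ZT12, 0 at ZT16 and 0 at ZT20. It was 0 to 1 for the interaction at ZT12 and 0 at other times. From ZT12 to ZT16 it was 0 to 2 in WT cal. res., 0 to 1 in WT ctrl., 1 to 2 in GR LKO cal. res. and 0 in GR LKO ctrl. livers. Over all time points, with all livers of a replicate number or a library that stands apart left out, it was 6 to 7 on cal. res., 8 to 9 on ctrl. and 0 to 3 for the interaction. For rhythms it was 0 in WT cal. res., 2 to 3 in GR LKO cal. res., 1 to 2 in WT ctrl. and 0 to 3 in GR LKO ctrl. livers.

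Replicate numbers in the titles were not treated as pairs in the reported fits. In 0 of 18 comparisons was every correlation between livers of the same number over 0.1 (10 of 57 were, from -0.27 to 0.22). Livers of different numbers were not compared, so this check cannot exclude that some numbers share a block. With the number as a replicate block, the count of calls was for the genotype effect on ctrl. 1 at ZT0, 1 at ZT8 and 0 at ZT16, ZT12 to ZT16 in WT cal. res. 1 and ZT12 to ZT16 in GR LKO cal. res. 3. The block added 6 calls of single genes and lost 8, 229 were as before, and the other counts stayed within 1.5 times. On cal. res. at ZT16 Fabp1 was not called with the block (edgeR adjusted p = 0.0711) and Cyp4a32 was (0.0409). Called with the block as well were Cd36 in the diet comparison (0.0463) and Vnn1 by genotype on cal. res. at ZT12 (0.0257). From ZT12 to ZT16 the block added Aldh3a2 (0.0299) and Cyp4a14 (0.0259) in GR LKO cal. res. livers. In WT ctrl. livers it added Cyp4a10 over that step, which rose (log2 fold change 0.41, 0.0327). Also not called with it were Cd36 (0.0835) and Vnn3 (0.0776) on ctrl. at ZT0, Aldh3a2 (0.136) and Cyp4a32 (0.0737) at ZT8 and Fabp1 at ZT16 (0.168), and from ZT12 to ZT16 Vnn1 in WT cal. res. (0.0746) and Fabp1 in WT ctrl. livers (0.0797).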
